A study of Mus musculus with 5 samples.

Results

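Primary mouse rib chondrocytes were compared between day 9 and day 6 of culture, using the array labelled 9 days against the array labelled 6 days. Both arrays belong to a time course of 5 single-colour Affymetrix arrays, hybridised once per time point at days 2, 6, 9, 12 and 15. The cells were taken from FVB mouse embryos of gestational day 18.5, whose rib cages were digested with collagenase and trypsin. They were plated at high density on gelatin in a serum medium with ascorbic acid and beta-glycerophosphate, which was renewed every other day. All 5 arrays share that strain, embryonic age and medium, and no treatment separates them. A digest of whole rib cages can carry cells of perichondrium, bone, fat, muscle and vessels, and the labels name no step that removes them. They also do not say how long before harvest the medium was last changed, or whether the 5 dishes came from a common isolate. Every gene with a probe set of its own was taken, represented by its brightest probe set, which gave 18193 genes, and 13836 of these lay above the detection floor on day 6 or day 9.

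Chondrocytes build cartilage from type II collagen and the proteoglycan aggrecan, and in culture they can lose that state or pass to a hypertrophic one. Fat cells arise when the nuclear receptor gene Pparg and the C/EBP transcription factor genes switch on a set of lipid storage and secreted proteins, the adipokines. Interferons act through cell surface receptors and the STAT and IRF transcription factors, which switch on antiviral effectors and the machinery that presents peptides on class I molecules. The integrated stress response works through the transcription factor ATF4, which drives genes for amino acid synthesis and import when amino acids are short or protein folding is disturbed.

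The values were probe set intensities, and log2 was taken after raising every value below 73.1, the 40th percentile of the whole table, to that floor. A gene was counted as different when its floored intensities differed at least 2-fold. Where a gene lay at the floor on either day, only a bound is known, written as "at least". With 1 array per day there is no replicate error and no test, so every difference describes these 2 arrays. The one guide to error is the spread between probe sets of a gene, read on the same arrays. It had an SD of 0.41 on the log2 scale over 3011 genes with 2 probe sets measured on both days, and it holds none of the variation between dishes or arrays. Where the brightest probe set differed 2-fold and another probe set lay above the floor, the directions matched in 396 of 519 genes (76.3%) and the other was itself 2-fold different in 196 (37.8%). In such mixed cells, a change in the number of cells of a type and a change in transcript per cell cannot be told apart.

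The arrays were alike in general measures, with small offsets between days 6 and 9. Median intensity was 117.7 at day 6 and 106.4 at day 9, and 61.9% and 58.8% of probe sets lay above the floor. As a sign of RNA integrity, the 3'-to-5' ratios of control probe sets were 1.25 and 1.27 for Actb and 0.707 and 0.616 for Gapdh. The part of these offsets in the results was not tested beyond centring each array on its median and quantile normalization. Centring moved the median log2 difference of genes measured on both days from -0.02 to 0.12, and quantile normalization moved it to -0.035. All 13 housekeeping genes with a probe set were within 2-fold, with a median of 0.06.

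Nearly equal numbers of genes were higher and lower at day 9, but the large differences lay on the higher side. At least 2-fold higher were 698 genes, 3.84% of the 18193, and at least 2-fold lower were 675, or 3.71%. Bounds made up 207 and 296 of them. At 4-fold the counts were 127 higher and 20 lower, and at 8-fold 35 and 2. The median log2 difference was 0.00 over all genes and -0.05 over those above the floor on either day. Among genes that differed 2-fold, 50.8% were higher, and centring each array on its median made that 65.7%, with 913 higher and 477 lower. Quantile normalization made it 53.6%, with 711 higher and 615 lower.

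**Figure D1:**
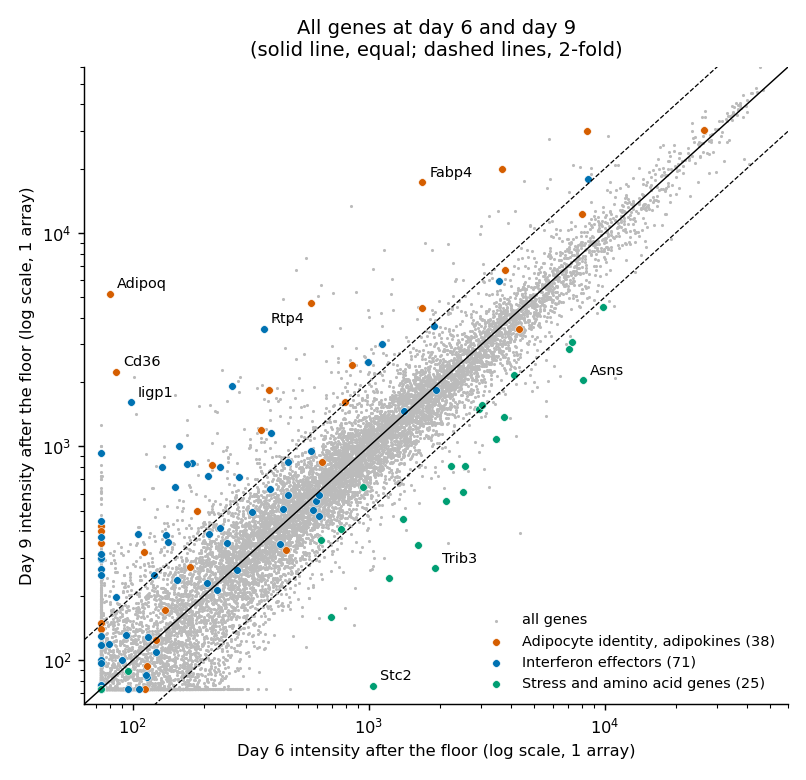
Each point is a gene, with its day 6 intensity after the floor on the horizontal log axis and its day 9 intensity on the vertical log axis, from 1 array each; the solid line marks equal intensity and the dashed lines 2-fold. Adipocyte genes such as Adipoq (79.6 against 5191) and interferon effectors such as Rtp4 (357.6 against 3563) lie above the upper dashed line, and stress and amino acid genes such as Trib3 (1901 against 268.5) lie under the lower one.

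Genes confined to this step were fewer. Counted as such were genes that differed at least 2-fold from day 6 to day 9 and under 2-fold either way from day 2 to 6, from day 9 to 12 and from day 12 to 15. There were 264 higher (1.45% of genes, out of the 698 higher) and 325 lower (1.79%, out of the 675 lower). Neighbouring steps share an array, so a high or low day 9 array enters 2 of the steps, and the intensities of all 5 days are therefore given. Under a stricter limit of 1.5-fold for the other steps, 101 and 143 remained within the definition. In a set that overlaps these, 106 genes (0.583%) had a signal that started in the step, at the floor on days 2 and 6 and at least 2 times the floor at day 9. In 86 genes (0.473%) a signal stopped, by the reverse definition. Of these, 45 starting and 61 stopping genes are also counted as confined to the step.

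The lists of genes that follow were drawn up with earlier results of these arrays known, so their direction is a description. Immediate early, adipocyte, osteoblast and interferon effector lists had the largest shares of higher genes, and the list of stress and amino acid genes had the largest share of lower ones.

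**Figure D2:**
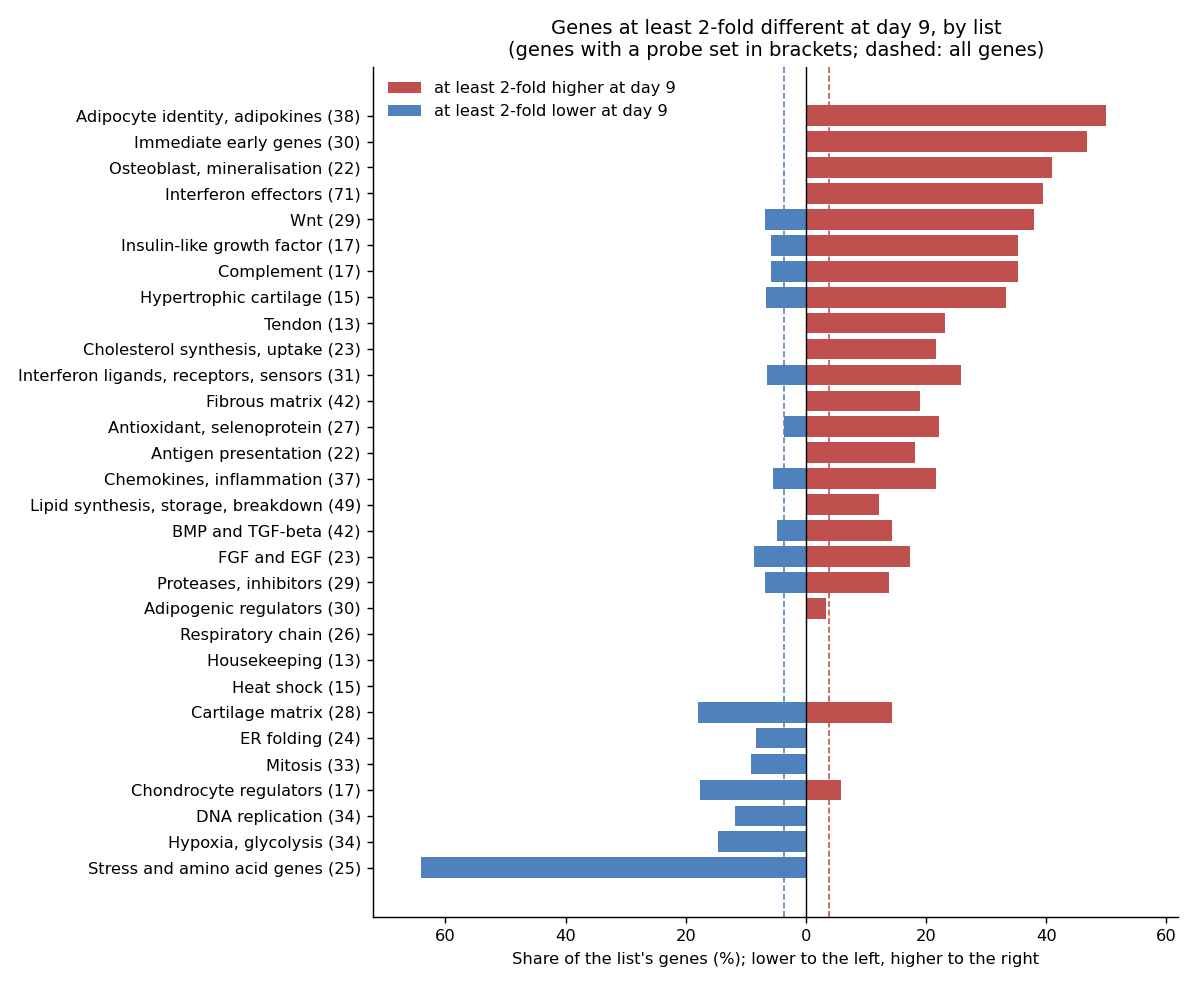
Bars give, for 30 gene lists, the share of genes with a probe set (number in brackets) that were at least 2-fold higher at day 9 (right) or lower (left) than at day 6, in percent, and dashed lines give the shares over all genes, 3.84% and 3.71%. Adipocyte identity genes reach 50.0% on the right, and stress and amino acid genes 64.0% on the left.

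Interferon effectors, the proteins that interferon-stimulated cells make against viruses and other invaders, were in many cases higher at day 9. Of 71 with a probe set, 28 (39.4%) were at least 2-fold higher, 0 were 2-fold lower and 5 were at the floor on both days, with a list median of 0.74. Iigp1, a GTPase that attacks the vacuoles of intracellular parasites, had intensities of 38.8, 97.7, 1608, 1659 and 355.9 on days 2, 6, 9, 12 and 15. Its day 9 intensity was 16.5-fold that of day 6 (7.74-fold by another probe set), and the gene stayed as bright at day 12 before it dimmed. Ifit1, which binds viral RNA, had 12.5, 13.9, 929.8, 216.2 and 66.1, so it stood above the floor on days 9 and 12 alone and was at least 12.7-fold higher. For Rtp4, an interferon-induced chaperone of membrane receptors, the 5 intensities were 95.55, 357.6, 3563, 1594 and 545.1, a 9.96-fold difference (0.84 on the log2 scale by another probe set).

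Several effectors peaked on the day 9 array itself. Ifit3, of the same family as Ifit1, had 133.1, 178.4, 836.2, 278.6 and 138.1, 4.68-fold higher at day 9 and back near its day 2 level at day 15. Bst2, tetherin, which holds budding virus at the cell surface, had 26.3, 168.7, 825.7, 532.5 and 361.6. Among the 28 higher effectors the day 9 intensity was the highest of the 5 in 23, against 244 of the 698 higher genes as a whole. Only 7 of the 28 met the definition of genes confined to this step, against 264 of the 698 higher genes as a whole. Among the 7 were Parp9, Igtp, Gbp7, Dtx3l, Ifi27l2a and Trim30a. Parp9 and Dtx3l, which encode partners in one antiviral complex, were 6.42-fold and 4.28-fold higher. Xaf1 had a 7.34-fold higher intensity on its brightest probe set but -0.11 on the log2 scale by another. Mx1 was at the floor on both days. The chemokine gene Cxcl10, a common read-out of interferon, was at the floor at day 6 and had 118 at day 9, at least 1.61-fold higher.

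On the signalling side the ligand genes were dim and several transducers higher. Of 31 ligand, receptor and sensor genes with a probe set, 8 (25.8%) were 2-fold higher and 2 (6.45%) 2-fold lower, and the median was 0.19. The shares over all genes were 3.84% and 3.71%. The interferon genes Ifnb1 and Ifna1 had 76.3 and 84.4 at day 6 and were at the floor at day 9, with 42.6 and 8.11. The receptor gene Ifnar1 had 840.9 and 980.2, and Ifngr1 had 771.9 and 823.9, both well within 2-fold. Another receptor gene, Ifngr2, was among the 8 that were 2-fold higher. The transcription factor genes Irf7, Irf9 and Stat2 were 3.92-fold, 3.60-fold and 2.81-fold higher. Usp18, which restrains interferon receptor signalling, had 106.2, 65.7, 728.3, 158.7 and 20.1 in order of day, at least 9.96-fold higher at day 9. Ifih1, the sensor of long double-stranded RNA, had 35.2, 34.1, 707.2, 386 and 183, at least 9.67-fold higher. Usp18 was brief, above 2 times the floor on days 9 and 12 only, while Ifih1 was still above that level at day 15. The 2 lower genes were Cgas, the sensor of cytosolic DNA, and Irf5, with log2 differences of -1.13 and -1.07 (Irf5 0.59 by another probe set).

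Antigen presentation genes were higher in 4 of 22 with a probe set (18.2%) and lower in 0, with a median of 0.50. The share higher over all genes was 3.84%. Psmb8, a catalytic subunit of the immunoproteasome, had 17.9, 47.2, 702.3, 859.3 and 702.4. It was below the floor on the first pair of days and held a near constant level on the last 3, at least 9.61-fold above day 6. Its partner subunit Psmb9 was 3.96-fold, the peptide transporter Tap2 2.31-fold and the class I heavy chain H2-K1 2.24-fold higher (H2-K1 from -0.55 to 1.36 on the log2 scale by its other probe sets). B2m, the class I light chain, had 11370 and 20790, 1.83-fold higher.

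White cells make and answer interferon, so their markers were read beside these genes. Of 29 macrophage and osteoclast markers 17 were at the floor on both days, 0 were 2-fold higher and 2 were lower, Adgre1 and Cd14. Summed floored intensity was 4463 at day 6 and 5612 at day 9, of which Ctsk, also made by other connective tissue cells, held 1542 and 2880. Ptprc and Tyrobp, which mark leukocytes and myeloid cells, were at the floor on both days, Adgre1 went from 172.2 to the floor, and Csf1r had 171.5 and 155.7. Among 22 blood cell markers 14 were at the floor on both days and 1, Camp, was 2-fold higher. The share lower was thus 6.9% of the macrophage and osteoclast markers, and the share higher 4.55% of the blood cell markers. Over all genes 3.84% were higher and 3.71% lower.

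The promoters of interferon genes commonly hold an interferon-stimulated response element, and its core was searched for as GAAANNGAA, on both strands, in the 250 bases before and 50 after the start of RefSeq genes (build GRCm38.p6). Of the 40 genes of the 3 interferon-related lists that were 2-fold higher, 32 had a promoter in the table and 17 of these (53.1%) held a match. Among members of the lists that were not 2-fold higher it was 20 of 64 (31.2%), and among all genes 2638 of 27025 (9.76%). Over all 517 genes 2-fold higher with a promoter the share was 15.5%, and over all 551 lower ones 6.35%. Of array genes above the floor on day 6 or day 9, 920 of 11110 with a promoter held it (8.28%). A promoter was counted once however many matches it held. Psmb8, Irf7, Irf9, Xaf1 and Oasl2 held none of these letters in the window. Shown as examples of promoters that hold the letters, which many of the higher genes do not, the 250 bases before the start of Ifit1 (chr19:34640639-34640888, plus strand), Igtp (chr11:58199306-58199555, plus strand) and Bst2 (chr8:71537473-71537722, minus strand) read as follows, 5′ to 3′ in the sense of the gene, with matches on either strand in capitals.
Ifit1: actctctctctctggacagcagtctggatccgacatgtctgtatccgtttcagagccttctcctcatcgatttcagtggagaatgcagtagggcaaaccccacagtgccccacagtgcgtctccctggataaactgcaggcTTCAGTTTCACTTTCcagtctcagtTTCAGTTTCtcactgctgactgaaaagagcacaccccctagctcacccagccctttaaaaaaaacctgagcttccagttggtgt
Igtp: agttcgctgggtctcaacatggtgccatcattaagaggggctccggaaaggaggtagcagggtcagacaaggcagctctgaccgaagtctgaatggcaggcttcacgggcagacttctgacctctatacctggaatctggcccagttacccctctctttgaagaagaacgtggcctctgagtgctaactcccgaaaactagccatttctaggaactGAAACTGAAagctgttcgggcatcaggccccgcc
Bst2: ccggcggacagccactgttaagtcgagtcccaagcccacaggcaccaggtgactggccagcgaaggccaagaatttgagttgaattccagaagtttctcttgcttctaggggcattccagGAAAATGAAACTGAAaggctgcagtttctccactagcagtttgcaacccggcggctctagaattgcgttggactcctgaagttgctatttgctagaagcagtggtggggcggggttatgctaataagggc
Ifit1 held 3 matches, all on the opposite strand and 2 of them overlapping, Igtp held 1, and Bst2 held 2 that overlap. A match is a description of the letters and was not tested as a binding site.

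Many adipocyte genes were higher at day 9, and the list median was higher again at day 12. Of 38 adipocyte identity genes and adipokines with a probe set, 19 (50.0%) were at least 2-fold higher and 0 lower, 7 were at the floor on both days, and the list median was 0.98. Adipoq, the adipokine adiponectin, had 79.3, 79.6, 5191, 16400 and 5924 on days 2, 6, 9, 12 and 15. That made it 65.2-fold higher at day 9, the largest difference of any gene measured on both days, although its day 6 intensity lay just over the floor. Cd36, a fatty acid transporter, had 12.5, 84.8, 2239, 5430 and 1087, 26.4-fold higher, or 0.81 to 2.35 on the log2 scale by its other probe sets. Fabp4, the fatty acid binding protein of fat cells, had 266.8, 1680, 17220, 36540 and 24980. It was thus bright before the step began and 10.2-fold higher after it, or 0.69 to 3.03 on the log2 scale by its other probe sets.

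Other adipocyte genes shared this course with a peak at day 12. Lpl, the lipoprotein lipase, had 1286, 8369, 30060, 37930 and 18990, Car3, a carbonic anhydrase abundant in fat, had 270.4, 3679, 19890, 33570 and 10060, and the haptoglobin gene Hp had 112.1, 567.5, 4717, 9781 and 7268. Resistin, Retn, went from 187.2 through 497.5 to 2816 on days 6, 9 and 12. The lipid droplet gene Cidec was still at the floor at day 9 and had 378.3 at day 12, and the leptin gene Lep was at the floor on both days. Day 9 was the highest of the 5 days in 1 of the 19 higher genes. Set against day 6, the list median was 0.00, 0.98, 1.99 and 1.17 on days 2, 9, 12 and 15. Only 4 of the 19 were confined to this step, against 264 of the 698 higher genes as a whole. They were the angiotensinogen gene Agt, the lipid droplet gene Plin4, Sncg and Nampt. For Plin1, Cfd, Acsl1 and Adrb3 the annotation used here gives no probe set that is theirs alone.

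The regulators of fat cell formation differed far less than the adipocyte identity genes and adipokines. Of 30 with a probe set 1 was 2-fold higher and 0 lower, 3.33% against 3.84% for all genes, with a median of 0.06. The 1 was Cebpa, a C/EBP factor of the late stage, which had 264.8, 409.4, 1883, 1943 and 572.7 and was 4.60-fold higher. Pparg, the receptor gene that drives fat cell formation, had 1632, 1514, 2567, 2873 and 1501, 1.70-fold higher, so it was bright on days 2 and 6, when Adipoq lay near the floor. Cebpb and Cebpd, the early C/EBP genes, had log2 differences of -0.21 and 0.54. Dlk1, which holds fat precursors back, had 15000 at day 6 and 8562 at day 9, and Srebf1, a regulator of fatty acid synthesis, had 1985 and 1140.

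Lipid metabolism genes were higher in 6 of 49 with a probe set (12.2%) and lower in 0, with a median of 0.17. The share higher over all genes was 3.84%. Scd1, the stearoyl-CoA desaturase, had 5686 at day 6 and 16280 at day 9, Acss2, which makes acetyl-CoA from acetate, had 240 and 954.9, and the fatty acid elongase Elovl6 had 805.1 and 1820 (-0.17 to 0.20 on the log2 scale by other probe sets). Fatty acid synthase, Fasn, was 1.36-fold higher. A pair of AGGTCA half-sites with 1 base between, called DR1 and bound by PPAR gamma with its partner, was searched for with at most 2 mismatches in the same promoter windows. Of 25 adipocyte and lipid genes that were 2-fold higher, only 14 had a promoter in the table. The pair was found in 1 of these 14 (7.14%, Cd36) and in 4 of 53 other members with a promoter (7.55%). It was found in 4.40% of all genes and in 3.73% of array genes above the floor on day 6 or day 9.

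Most cholesterol genes did not reach the 2-fold threshold. Of 23 with a probe set 5 (21.7%) reached 2-fold higher and 0 were 2-fold lower, and the list median was 0.91. They were Tm7sf2, Dhcr7 and Fdps of the synthesis pathway, Insig1, which senses sterols, and the lipoprotein receptor Scarb1, between 2.10-fold and 3.17-fold higher. Squalene epoxidase, Sqle, had 445.6, 2216, 4190, 3315 and 2590, and the isomerase Idi1 had 394.4, 2402, 4780, 4038 and 3240, just under the threshold at 0.92 and 0.99. Both were already brighter at day 6 than at day 2, while Scarb1 had 886.6 at day 2 and 654.5 at day 6. The list median against day 6 was -1.58 at day 2 and 0.65 at day 12.

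**Figure D3:**
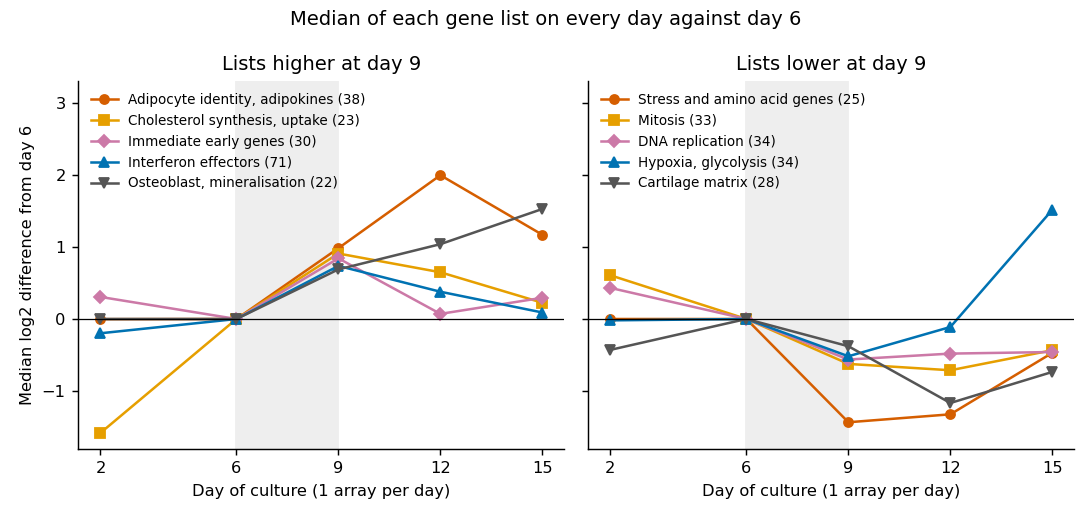
Lines give the median log2 difference from day 6 of each gene list on days 2, 6, 9, 12 and 15 (1 array per day; genes with a probe set in brackets), for lists higher (left) and lower (right) at day 9; the step from day 6 to day 9 is shaded. Adipocyte genes reach 1.99 at day 12, interferon effectors and immediate early genes are highest at day 9 (0.74 and 0.84), and stress and amino acid genes are at -1.43 and -1.32 on days 9 and 12.

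Immediate early genes, which cells switch on within minutes of a stimulus without new protein synthesis, stood out on the day 9 array. Of 30 with a probe set 14 (46.7%) reached 2-fold higher and 0 were 2-fold lower, and the list median was 0.84. Fos had 454.4, 539.3, 7631, 738.6 and 508.5, 14.2-fold higher at day 9 and alike on the other 4 days. Egr1 had 3346, 2976, 10810, 3614 and 2269, 3.63-fold higher. Nr4a1 had 231.8, 282.6, 1789, 500.5 and 289.9, and Zfp36, which destabilises cytokine transcripts, had 321.1, 335.9, 1877, 607.6 and 479.6. In 13 of the 14 day 9 was the highest of the 5 days. Jun, the partner of Fos, had 1346 at day 6 and 1731 at day 9, and Fosb was at the floor on both days. Only Klf6 of the 14 met the definition of a gene confined to this step, against 264 of the 698 higher genes as a whole. With days 9 and 12 pooled against days 2 and 6 the list held 7 higher genes. It held 7 with days 9, 12 and 15 against day 6 as well.

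**Figure D4:**
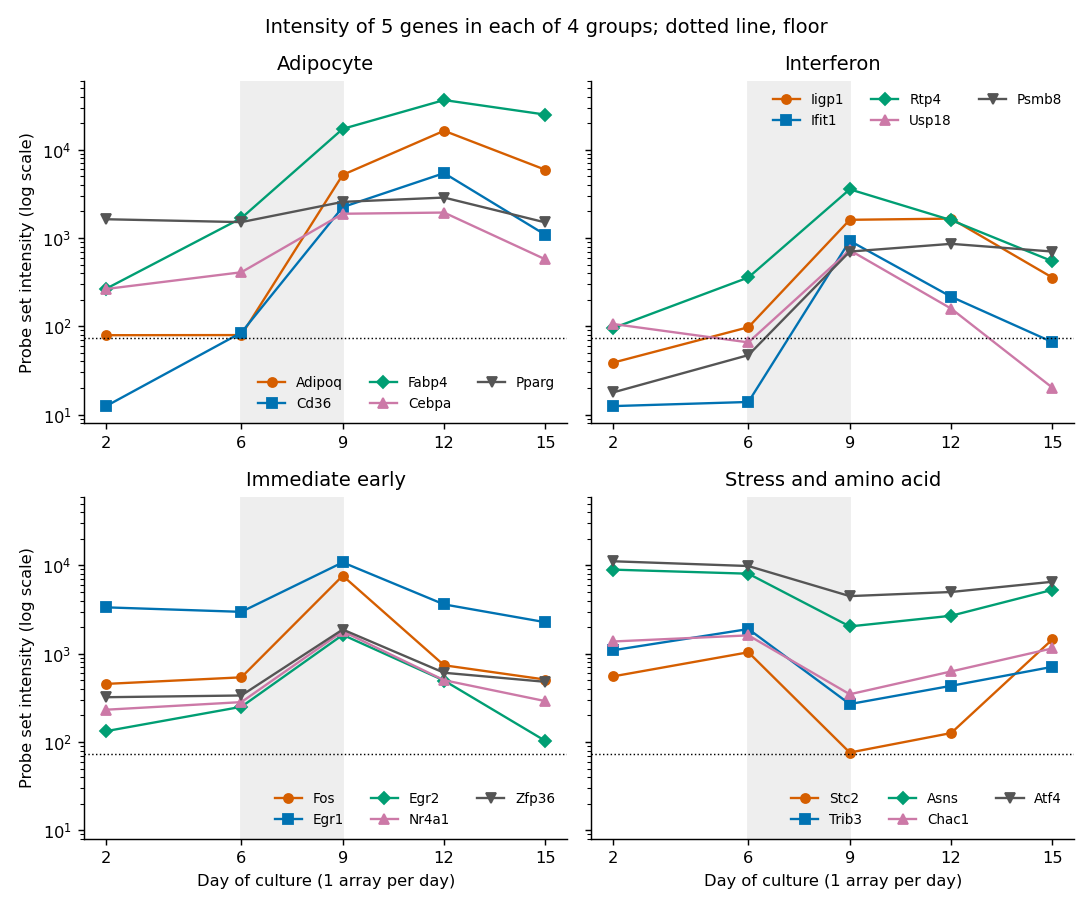
Probe set intensity on a log axis against day of culture (1 array per day) for 5 genes in each of 4 groups, with the floor dotted and the step from day 6 to day 9 shaded. Adipoq goes from 79.6 to 5191 and on to 16400 at day 12, Fos is high at day 9 alone (7631), and Trib3 and Asns are lowest at day 9 (268.5 and 2035).

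Many bone and mineralisation genes were higher, and the list median was higher again on later days. Of 22 osteoblast genes with a probe set 9 (40.9%) were 2-fold higher and 0 were 2-fold lower. The list median was 0.69 at day 9 and, again against day 6, 1.04 at day 12 and 1.53 at day 15. Ibsp, bone sialoprotein, had 132.8, 836.2, 13300, 23590 and 35030, 15.9-fold higher at day 9 (3.92 on the log2 scale by another probe set). Dmp1, a matrix protein of mineralising osteoblasts and osteocytes, had 32.6, 44.3, 758.7, 3148 and 4432, at least 10.4-fold higher (4.37-fold and 4.66-fold by its other probe sets). Phex, a peptidase that governs phosphate, and Ifitm5, a bone-restricted membrane protein, were at least 8.44-fold and at least 7.76-fold higher. Alpl, the phosphatase of mineralising cells, had 126, 69.8, 637.3, 985.2 and 1640, at least 8.72-fold higher, and it met the definition of a gene confined to this step although it was brighter on each later day. The type I collagen genes Col1a1 and Col1a2 were 2.22-fold and 2.75-fold higher (Col1a1 0.74 on the log2 scale by another probe set). Sp7, the osteoblast transcription factor osterix, had 230 and 417.4.

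Among 15 genes of hypertrophic cartilage 5 (33.3%) were 2-fold higher and 1 (6.67%) was lower, and the median was 0.44. The shares over all genes were 3.84% and 3.71%. Ibsp and Alpl are counted in this list too. Mmp13, collagenase 3, had 1124 and 4198. The hedgehog receptor gene Ptch1 was 2.38-fold higher, or 0.21 to 0.51 on the log2 scale by other probe sets. The lower gene was Col10a1, type X collagen, with 4800, 228.2, 35.1, 270.1 and 1686 in order of day. It was at the floor at day 9, at least 3.12-fold lower than at day 6, and it was bright again at day 15.

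Fibrous matrix genes were higher in 8 of 42 with a probe set and lower in 0, with a median of 0.30, and 0 of the 8 were confined to this step. Col3a1, the type III collagen chain, had 5785 at day 6 and 27360 at day 9, Postn, periostin, had 699.7 and 2965, and Vcan, the proteoglycan versican, had 478.7 and 1827. Of 13 tendon genes 3 (23.1%) were higher. These were Tnmd, tenomodulin, with 753.1 and 3598, and Egr1 and Egr2, which belong to the immediate early list too. Among 15 smooth muscle and pericyte markers Mylk and Myl9 (13.3%) were 2.44-fold and 2.25-fold higher and Notch3 (6.67%) 2.41-fold lower. Of 29 matrix proteases and inhibitors 4 (13.8%) were higher, led by Mmp13 and the aggrecan-cleaving Adamts4 with 116.9 and 377.3. The 2 lower (6.9%, against 3.71% of all genes) were inhibitors, Timp3 with 9223 and 4191, and Timp1.

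Secreted signals and their antagonists were among the larger differences outside these programmes. In the Wnt list 11 of 29 genes (37.9%) were 2-fold higher, 2 (6.9%) were lower and the median was 0.42. The shares over all genes were 3.84% and 3.71%. Rspo2, a Wnt amplifier, had 183.8, 627, 5701, 9197 and 3966, 9.09-fold higher, but -1.13 on the log2 scale by another probe set. Sfrp1, a secreted Wnt antagonist, had 193.3, 351.2, 1940, 2012 and 1640, 5.52-fold higher and confined to this step. Its signal kept a plateau from day 9 on. The antagonists Wif1 and Frzb were 3.94-fold and 3.92-fold higher. Both amplifiers and antagonists of the pathway were thus among the higher genes. Axin2, a target of Wnt signalling, was at the floor at day 6 and had 170.1 at day 9, at least 2.33-fold higher (-0.21 on the log2 scale by another probe set). Wnt11 went from 257.7 to the floor.

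In the insulin-like growth factor list 6 of 17 (35.3%) were higher and 1 (5.88%) lower. Igf1 had 209.3, 1843, 8299, 10070 and 5708, 4.50-fold higher, and its binding protein Igfbp2 was 4.39-fold higher, while Igf2, the fetal growth factor, had 38660 and 34840 by its brightest probe set and -1.13 on the log2 scale by another. The BMP and TGF-beta list held 6 (14.3%) higher and 2 (4.76%) lower genes of 42, against 3.84% and 3.71% of all genes. Its median of -0.05 turned to 0.06 when arrays were centred on their medians. The antagonists Chrdl1 and Fst were 6.52-fold and 4.15-fold higher and the ligand Bmp2 3.52-fold, while Tgfbi, a matrix protein induced by TGF-beta, was 3.44-fold lower. In the FGF and EGF list 4 of 23 (17.4%) were higher, 2 (8.7%) were lower and the median was 0.00. Spry4, a feedback inhibitor of receptor tyrosine kinases, went from the floor to 728.4, but by its other probe sets the log2 difference was 0.17 to 1.88. Spry1 was 2.57-fold higher.

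Immune mediators apart from interferon held more higher than lower genes. Of 37 chemokine and inflammation genes 8 (21.6%) were higher and 2 (5.41%) lower, against 3.84% and 3.71% of all genes. The median was 0.00, or 0.26 without the 9 genes at the floor on both days. Il1rn, the interleukin 1 receptor antagonist, had 4524 at day 6 and 17500 at day 9, Cxcl12 had 3518 and 12700, and Vcam1, a leukocyte adhesion molecule, had 374.2 and 1634. Steap4, a metalloreductase, was 11.3-fold higher. An antagonist, a homing chemokine and an adhesion molecule thus stood beside each other among the higher genes. Among 17 complement genes 6 (35.3%) were higher and 1 (5.88%) lower. The inhibitor Serping1 was 6.58-fold, C2 at least 4.80-fold and C1s1 4.13-fold higher. Of 27 antioxidant and selenoprotein genes 6 (22.2%) were higher and 1 (3.7%), Nqo1, lower. Selenop, the plasma selenium carrier, had 12.8, 489.3, 6693, 10870 and 6016, 13.7-fold higher, and the glutathione transferases Gstt1, Gsta4 and Gstm1 were 7.46-fold, 4.65-fold and 2.73-fold higher.

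The stress and amino acid genes were the programme most clearly lower at day 9. Of 25 with a probe set 16 (64.0%) were at least 2-fold lower and 0 higher, with a median of -1.43. Confined to this step were 13 of the 16, against 325 of the 675 lower genes as a whole. Trib3, a pseudokinase that ATF4 induces, had 1094, 1901, 268.5, 432.2 and 709.9, 7.08-fold lower at day 9 than at day 6. Asns, asparagine synthetase, had 8948, 8047, 2035, 2687 and 5286, 3.95-fold lower, and both genes were bright on days 2 and 6 and dimmest at day 9. Atf4 itself had 11130, 9830, 4485, 4995 and 6522, 2.19-fold lower, or -0.91 to -0.48 on the log2 scale by its other probe sets.

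The lower genes of this list span its functions. Amino acid transporters were lower, with Slc7a5 5.04-fold, Slc1a4 and Slc7a1 by -1.61 and -1.43 on the log2 scale. So were the enzymes of serine synthesis, Phgdh, Psat1 and Psph, which had log2 differences of -1.23, -1.30 and -1.68, and the mitochondrial folate enzymes Mthfd2, Shmt2 and Aldh1l2, with -1.95, -1.46 and -2.02. Chac1, which breaks down glutathione, had 1374, 1611, 346.7, 628.7 and 1149. Ddit3, a stress-induced transcription factor, had 2147, 2565, 805.8, 806.7 and 950. By another probe set Slc1a4, Phgdh, Shmt2 and Ddit3 fell short of 2-fold and Slc7a1 had the opposite sign, as given further on. Stc2, stanniocalcin 2, had 553.3, 1037, 75.8, 126.1 and 1454, 13.7-fold lower at day 9 than at day 6 (3.55-fold and 3.77-fold by its other probe sets), and it was brighter at day 15 than at day 6. Slc7a3, another amino acid transporter outside the list, was 5.89-fold lower.

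Genes that ATF4 and C/EBP factors control often hold a composite element, searched for here as TGATGNAA on both strands in the same windows, letters chosen after the values of this list were seen. It was found in 4 of the 13 lower genes with a promoter (30.8%) and in 4 of the 9 other members (44.4%). Within the list its share was thus not higher among the lower genes. Of all genes 4.51% held it, and of array genes above the floor on day 6 or day 9 2.91% did. Among all 551 lower genes the share was 6.35% and among the higher ones 3.48%. The promoters of Asns (chr6:7693210-7693459, minus strand) and Chac1 (chr2:119350992-119351241, plus strand) are shown as 2 of the 4, again the 250 bases before the start, 5′ to 3′ in the sense of the gene, with the match in capitals.
Asns: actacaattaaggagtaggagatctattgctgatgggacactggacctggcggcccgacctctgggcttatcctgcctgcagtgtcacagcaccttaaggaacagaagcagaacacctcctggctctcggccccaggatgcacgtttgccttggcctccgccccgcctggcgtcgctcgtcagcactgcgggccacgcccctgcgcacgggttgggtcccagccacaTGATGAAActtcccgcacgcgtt
Chac1: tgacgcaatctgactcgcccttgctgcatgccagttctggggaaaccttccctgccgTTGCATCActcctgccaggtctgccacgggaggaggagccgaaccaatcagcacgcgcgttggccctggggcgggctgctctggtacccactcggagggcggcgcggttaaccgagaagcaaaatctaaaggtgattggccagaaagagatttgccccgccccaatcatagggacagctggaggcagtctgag
Asns held it on the strand of the gene and Chac1 on the opposite one.

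Protein folding genes did not share the size of this difference. Of 24 endoplasmic reticulum folding genes 2 (8.33%, against 3.71% of all genes) were 2-fold lower and 0 higher, with a median of -0.28. Hspa5, the main chaperone of that compartment, had 22800 and 22520, and Ern1, a sensor of unfolded protein, had 843.9 and 323 (-1.72 to -0.06 on the log2 scale by its other probe sets). All 15 heat shock genes were within 2-fold, with a median of 0.03 that was -0.03 after quantile normalization. The 26 respiratory chain genes were within 2-fold as well, with a median of 0.00.

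Cartilage matrix genes were divided. Of 28 with a probe set 5 (17.9%) were 2-fold lower and 4 (14.3%) higher, with a median of -0.38 that became 0.00 with the floor at the 60th percentile. Acan, aggrecan, had 19490, 11050, 2092, 723.1 and 2328, 5.28-fold lower at day 9 than at day 6 and lowest at day 12. Col2a1, type II collagen, had 46510, 39070, 22140, 7510 and 17570, and Col9a1 and Col11a1 had log2 differences of -0.62 and -0.63. The other lower genes were Prg4, Col11a2, Chad and Col9a2. The higher genes were Otor, a small secreted cartilage protein, with 53.5, 1039, 6796, 6131 and 973.5, and Frzb, Snorc and Prelp. The defining chondrocyte markers Col2a1, Acan and Sox9 were bright on both days.

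Regulators of the chondrocyte state included 3 lower genes (17.6%) and 1 higher gene (5.88%) of 17, against 3.71% and 3.84% of all genes. Fgfr3, the receptor that restrains growth plate chondrocytes, had 3096, 5628, 1382, 878.1 and 743.3, 4.07-fold lower and confined to this step, with -2.12 on the log2 scale by another probe set. Wwp2, a ubiquitin ligase whose gene hosts a cartilage miRNA, was 2.22-fold lower. Sox9, the transcription factor that drives cartilage genes, had 4269, 2634, 1652, 1157 and 1291, 1.59-fold lower, and Sox5 and Sox6 were within 2-fold.

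Few proliferation genes passed the 2-fold threshold, and all that did were lower. Of 34 DNA replication genes 4 (11.8%) were 2-fold lower, all confined to this step, and 0 were higher, with a median of -0.56. They were the S phase transcription factor gene E2f1, the cyclin gene Ccne1, and Mcm10 and Mcm3, which open replication origins. Of 33 mitosis genes 3 (9.09%) were lower, Ube2c, Aurkb and Ndc80, also confined to this step, and the median was -0.62. Of all 675 lower genes 325 were so confined. From day 2 to day 6 the list medians were already -0.43 for replication and -0.61 for mitosis. Being confined to this step thus rests on the 2-fold threshold, not on level values before day 6. Ube2c, which helps the anaphase-promoting complex, had 7623, 4583, 1975, 2002 and 2336. Mki67, a common proliferation marker, had 3989, 3771, 2286, 2230 and 2465. E2f1, Mcm10 and Mcm3 each had another probe set with a difference above 0 on the log2 scale, of 0.47, 0.07 and up to 0.17.

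Hypoxia and glycolysis genes were lower in 5 of 34 with a probe set (14.7%) and higher in 0, with a median of -0.52. Slc2a1, the glucose transporter, had 8953, 4923, 1816, 1843 and 8098, 2.71-fold lower at day 9. The collagen prolyl hydroxylase genes P4ha2 and P4ha1 were 3.43-fold and 2.22-fold lower, the oxidase Ero1a 3.11-fold and the lactate transporter Slc16a3 2.91-fold. All 5 were brighter at day 15 than at day 6, and 0 were confined to this step, against 325 of the 675 lower genes as a whole. With days 9, 12 and 15 together against day 6 the list median was 0.34, the opposite sign.

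Markers of other cell types that a rib cage digest can hold showed few 2-fold differences, apart from the fat, bone and smooth muscle genes given above. Of 23 epithelial and mesothelial markers 4 were lower and 0 higher. Klk8, a serine peptidase, had 5541, 1048, 299.6, 291 and 275.1 and Klk10 had 4091, 452, 180.1, 98.55 and 80.3, so most of their difference from day 2 was already there at day 6. Of 16 glial and neuronal markers 2 were lower, Fabp7, which is made by glial precursors, with 1808, 462.3, 69.9, 59.8 and 124.2, and Cdh19. Of 17 endothelial markers 10 were at the floor on both days, Pecam1 among them, and 1, Ecscr, was lower. All 19 skeletal muscle markers were within 2-fold and 10 were at the floor on both days. The lower shares were 17.4% for epithelial and mesothelial, 12.5% for glial and neuronal and 5.88% for endothelial markers, against 3.71% of all genes.

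Beyond the lists, the largest higher genes included several secreted proteins. Srgn, the proteoglycan serglycin, had 93, 100.7, 2108, 4290 and 3399, 20.9-fold higher. Vegfc, a growth factor for lymphatic vessels, had 37.7, 102.5, 1422, 3104 and 1049, 13.9-fold higher. Rarres2, the adipokine chemerin, had an 11.5-fold difference on its brightest probe set and -0.79 to 4.45 on the log2 scale by others. Fap, a peptidase of activated fibroblasts, had 178.4, 238.2, 2276, 3638 and 2391, 9.56-fold higher, the largest difference among genes confined to this step that were above the floor on both days. Adh1, an alcohol dehydrogenase, was 7.35-fold higher and confined to this step too.

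On the lower side, Cdsn, corneodesmosin, an adhesive protein of the outer skin, had 1529, 4363, 392.9, 622 and 2636, 11.1-fold lower. Stc2 and Cdsn were the 2 genes at least 8-fold lower, Stc2 by its brightest probe set alone. Moxd1, a monooxygenase-like gene, had 3632, 2164, 353.3, 151.7 and 576.2, and the non-coding RNA host gene Snhg12 had 1077, 3243, 646.8, 876.7 and 885.2. Loxl4, a lysyl oxidase, had 3513, 3085, 781.8, 418.9 and 694.9, 3.95-fold lower and confined to this step, with -1.98 on the log2 scale by another probe set.

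Signals that started in the step were brighter than those that stopped. The 106 starting genes had a median intensity of 213.6 at day 9, and the brightest was Egfl6, a secreted matrix protein, with 5.12, 68.2, 1256, 1430 and 438.1. Next came Apoe, the lipid carrier apolipoprotein E, with 14.3, 27.5, 1008, 4749 and 2265, the scavenger receptor Scara5 (-0.37 on the log2 scale by another probe set), Ifit1, the prostaglandin receptor Ptgfr and Dmp1. At day 15, 61 of the 106 were still at least 2 times the floor and 24 were at the floor again. The 86 stopping genes had a median of 183.2 at day 6, not far above the 146.2 that the definition asks for. Fabp7 was the brightest at 462.3, followed by Sh3tc2 at 367.1, the neuropeptide Npy at 303.4, Nr6a1, Zfp691 and the hormone gene Adm2. Of the 86, 19 were again at 2 times the floor or more at day 15 and 37 were at the floor.

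For further genes named above as 2-fold different, another probe set fell short of 2-fold. On the log2 scale its difference was as small as 0.15 for Vcan, 0.32 for C2, 0.35 for Nampt, 0.40 for Adamts4, 0.50 for Mylk, 0.56 for Scarb1, 0.70 for Klf6 and 0.80 for Gstm1. Among lower genes it was -0.21 for Nr6a1, -0.23 for Wwp2, -0.37 for Slc1a4, -0.63 for Shmt2, -0.78 for Phgdh, -0.80 for Timp3, -0.91 for Ddit3 and -0.92 for Aurkb, and 0.07 for Slc7a1, with the opposite sign. Car3 and Ptgfr each had one just under the threshold, at 0.95. By another probe set the difference was still past 2-fold but over 1.5 times smaller for Chrdl1 (1.34), Cxcl12 (1.06), Dtx3l (1.34), Fst (1.19), Gbp7 (1.72), Igf1 (1.38), Sfrp1 (1.26), Trim30a (1.25) and Vegfc (2.90).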

How the data were processed

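The deposited values were probe set intensities on a linear scale, which the authors computed by MAS5, per the submitters' processing notes (version not given in the sources used here). All 45101 probe sets were read on every array. Their 2% trimmed mean was 500 on each array, so the arrays had been scaled alike, which hides a change common to most transcripts. Genes were named through the platform annotation with symbols updated from a RefSeq table (GRCm38.p6): 34945 probe sets had 1 symbol, 932 several, 9160 none and 64 were controls; 34741 took a current symbol and 204 kept an older one. Probe sets with several symbols named no gene.

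Values under the floor of 73.1 were raised to it, log2 was taken, and day 9 was set against day 6 with a threshold of 2-fold and no test. Python 3.11.15 with pandas 2.3.3, numpy 2.4.6 and matplotlib 3.10.9 was used, and the fold counting was tested on simulated data. The genes and lists were chosen with earlier results of these data known. Named genes were the 15 largest differences in each direction above the floor on both days, the 8 largest bounds, the 10 largest confined to the step, the 6 brightest starting and stopping genes, and from each list the 5 largest differences and up to 5 best known members. Members named beyond these to complete a count were chosen after their values were seen. Genes without an official symbol, 90 of those 2-fold different, were counted and not named. Alternatives changed the normalization, the floor, the probe set rule, the intensity filter, the days compared and the thresholds. Neither detection calls nor scanner files were analysed here.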

Additional observations from a re-analysis of the deposited data

How the results depend on the processing

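The 2-fold counts of 28 interferon effectors, 19 adipocyte, 9 osteoblast and 16 stress and amino acid genes were not recounted at other thresholds. Under every alternative of normalization, floor, probe set rule, intensity filter and days compared, these counts stayed within 1.5 times. Some other values moved further. Centring arrays on their medians gave 402 genes higher and 213 lower in this step only and 56 stopping genes. A floor at the 20th percentile gave 1736 higher and 2145 lower genes, 565 lower in this step only, 221 starting and 527 stopping genes. A floor at the 60th percentile gave 393 higher and 189 lower (67.5% higher), 115 lower in this step only, 17 stopping genes and 3 lower cartilage genes. The mean over probe sets gave 423 lower genes, 206 lower in this step only and 70 starting genes, and a filter on mean intensity that kept 11065 genes gave 448 lower. Days 9 and 12 against days 2 and 6 gave 1064 higher genes, 10 lower cartilage genes and 7 higher immediate early genes, and day 9 against days 2 and 6 gave 1065 and 3 lower cartilage genes. With days 9, 12 and 15 against day 6 there were 11 lower cartilage and 7 higher immediate early genes, and the hypoxia and glycolysis median (0.34) and Col10a1 (0.50) changed sign. Thresholds of 1.5-fold, 3-fold and 4-fold gave 1698, 265 and 127 higher and 2005, 101 and 20 lower genes. Other steps held under 1.5-fold left 101 higher and 143 lower genes in this step only. Apart from fewer genes at a higher threshold, floor or filter, the cause was not tested. Of 161 named genes 2-fold different, 152 kept their sign under all alternatives other than the thresholds, and 99 were 2-fold in all of these. The number of arrays, 1 per day, limits every value, dim genes most. No paired analysis was possible because each day has 1 array.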

Other observations

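Other genes confined to this step, chosen for mention after their values were seen, belong to none of the programmes described. Pycard, the adaptor of inflammasomes, had 141.5, 62.65, 381.3, 323.4 and 563.5 on days 2, 6, 9, 12 and 15, at least 5.22-fold above day 6 at day 9. Ephx2, soluble epoxide hydrolase, had 17.0, 105.5, 420, 755.4 and 637.6, 3.98-fold higher. Slc5a3, the inositol transporter that cells use against osmotic stress, had 3299, 3229, 12030, 11970 and 6110, but by its other probe sets the log2 difference reached -0.62 at its lowest. Aldh1l1, a folate enzyme of the cytosol, had 112.5, 188, 737.8, 811.2 and 676.4, higher where the mitochondrial folate enzymes named above were lower.

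The 10092 probe sets with several symbols or none held 252 that were at least 2-fold higher and 275 that were at least 2-fold lower at day 9, and none of them was named.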
